A study of Mus musculus with 8 samples.

Results

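Genes for ion channel subunits were followed in mouse neural stem cells (NSCs) grown as neurospheres. Members were chosen by symbol: every probe set annotated to 1 gene alone whose symbol starts with Kcn, Cacna, Cacnb or Cacng, or with Scn and a digit. For a gene with several probe sets, the probe set with the highest mean signal over the 8 arrays was used, so no comparison between groups entered the choice. This gave 119 genes of the 18194 genes with such a probe set, of which 84 were potassium channel genes, 24 calcium channel genes and 11 sodium channel genes. By their symbols 3 of the potassium group, Kcnq1ot1, Kcnmb4os1 and Kcnmb4os2, are noncoding RNAs from channel gene loci and no subunits.

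Voltage-gated channels open when the membrane potential changes, and each channel type is built from a pore-forming subunit and auxiliary subunits that set its gating and its place in the membrane. Sodium channels carry the rising phase of the action potential, potassium channels end it and set the resting potential, and calcium channels turn voltage into a calcium signal. Neural stem cells and astrocytes are known for a negative resting potential held by inward rectifier and two-pore potassium channels, while neurons add voltage-gated channels as they mature.

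The arrays were Affymetrix Mouse Genome 430 2.0 arrays hybridised with total RNA of secondary neurospheres from mouse forebrain, and the series' design text names adult brain as the source. The study's methods describe neurospheres from embryonic as well as adult mice, and the labels do not say which the arrays used. In MHM + GF, the control, the spheres were kept in a medium hormone mix with the growth factors EGF and FGF-2. In rcCHIL3 they were kept in MHM that HEK293T cells, a human embryonic kidney line, had conditioned after transfection with Chil3, which encodes the chitinase-like protein that the labels call ECF-L. For the rcCHIL3 medium no EGF or FGF-2 is named, and the study treats rcCHIL3 with growth factors as a separate condition. The media therefore differed in the growth factors and in conditioning by other cells as well as in CHIL3, and these cannot be told apart in any comparison of media. Each medium was sampled at 3 days and at 7 days with 2 arrays, which gave 4 groups and 8 arrays, and the study calls the 2 arrays independent experiments.

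Values are MAS5 signals, linear and in arbitrary units, after each array was brought to a common trimmed mean. Between 46.1% and 47.8% of all probe sets reached a signal of 50 on an array. A probe set was tested when at least 2 of the 8 arrays reached 50, and a group is called dim where both of its arrays were under 50. Log2 changes are on the log2(signal + 20) scale, which understates changes of low signals. Of the 8 NSC markers listed, 7 had a probe set of 1 gene and all 7 passed the filter, while the microglial markers Aif1, Cx3cr1, P2ry12, Itgam and Tmem119 and the endothelial markers Pecam1, Cldn5, Cdh5, Tek and Flt1 were under 50 on all arrays. In RNA of whole spheres, fewer cells of a type and less RNA per cell cannot be told apart.

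Most channel genes were too dim to be compared. Of the 119 genes 45 passed the filter (29 potassium, 12 calcium and 4 sodium) and 74 did not (55, 12 and 7), and 68 genes had no array at 50 or above. Among the 45, 21 were at or above 50 on all 8 arrays, and 5 (Cacna2d2, Kcnab1, Kcnc2, Kcnc4 and Kcnmb4os2) passed through a single group, so a difference between groups was built into their passing. A further 4 (Cacna2d3, Cacnb2, Kcna1 and Kcnj16) reached 50 in 1 medium alone, so a difference between media was built into theirs. Dim potassium channel genes included 18 of the 31 pore-forming Kv genes, 7 of the 12 Kv auxiliary genes, 12 of the 15 inward rectifier genes, 10 of the 12 two-pore genes and 7 of the 11 genes of calcium- or sodium-activated channels. Kcnma1, the pore of the large-conductance BK channel, reached no more than 38.2, and Kcnj2, the classical inward rectifier Kir2.1, no more than 1.64. Kcna7 and Kcnk10 came nearest to passing, with highest signals of 58.9 and 58.2 on 1 array. On the inner side of the filter, Cacna2d3 had its highest signal at 50.5 and Kcnab2 at 57.

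Of the 9 pore-forming Cav genes 6 were dim, among them Cacna1a and Cacna1b, the P/Q- and N-type channels of nerve terminals, with highest signals of 37.2 and 37.5. All 3 measured Cav beta genes passed, as did 3 of the 4 alpha2delta genes and 3 of the 8 gamma genes. Of the 8 pore-forming Nav genes Scn2a, Scn3a and Scn8a passed, and Scn1a, a main sodium channel of mature neurons, peaked at 31. Of the 3 Nav beta genes Scn3b passed, while Scn2b and Scn4b stayed at or below 26.6 and 9.28. The dim genes were, for the Kv pores, Kcns1, Kcnh5, Kcnq1, Kcna5, Kcnv2, Kcng4, Kcnh8, Kcng2, Kcnh7, Kcns2, Kcng1, Kcna3, Kcns3, Kcnv1, Kcnh1, Kcna4, Kcnf1 and Kcna7, with highest signals from 6.28 to 58.9. Among Kv auxiliary genes they were Kcne1, Kcne3, Kcne2, Kcne4, Kcnip4, Kcnab3 and Kcnip1 (7.31 to 49.7), and among calcium- or sodium-activated channels Kcnn3, Kcnmb1, Kcnt2, Kcnma1, Kcnmb2, Kcnn4 and Kcnu1 (3.67 to 42). The inward rectifiers were Kcnj2, Kcnj13, Kcnj1, Kcnj8, Kcnj15, Kcnj5, Kcnj9, Kcnj14, Kcnj4, Kcnj3, Kcnj6 and Kcnj12 (1.64 to 53.8), and the two-pore genes Kcnk4, Kcnk12, Kcnk16, Kcnk3, Kcnk15, Kcnk6, Kcnk5, Kcnk7, Kcnk13 and Kcnk10 (15.1 to 58.2). Kcnmb4os1 reached 9.19. Calcium channel genes too dim were Cacna1s, Cacna1a, Cacna1b, Cacna1g, Cacna1d and Cacna1f (14.9 to 50.6), Cacna2d4 (23.3) and Cacng1, Cacng6, Cacng3, Cacng2 and Cacng8 (14.3 to 41.1). Sodium channel genes too dim were Scn10a, Scn9a, Scn7a, Scn11a and Scn1a (9.06 to 31), besides the beta genes above. In a fit of all 45101 probe sets with no filter, 8 dim genes passed in a comparison of media or times (Kcna3, Kcnab3, Kcnj9, Kcnk5, Kcnk7, Kcnk15, Kcnn4 and Kcnu1), but all their signals were under 50, so no fold is given. A signal of 1 probe set is not comparable with that of another, so these values say whether a probe set could be measured and give no order of abundance among genes.

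**Figure D1:**
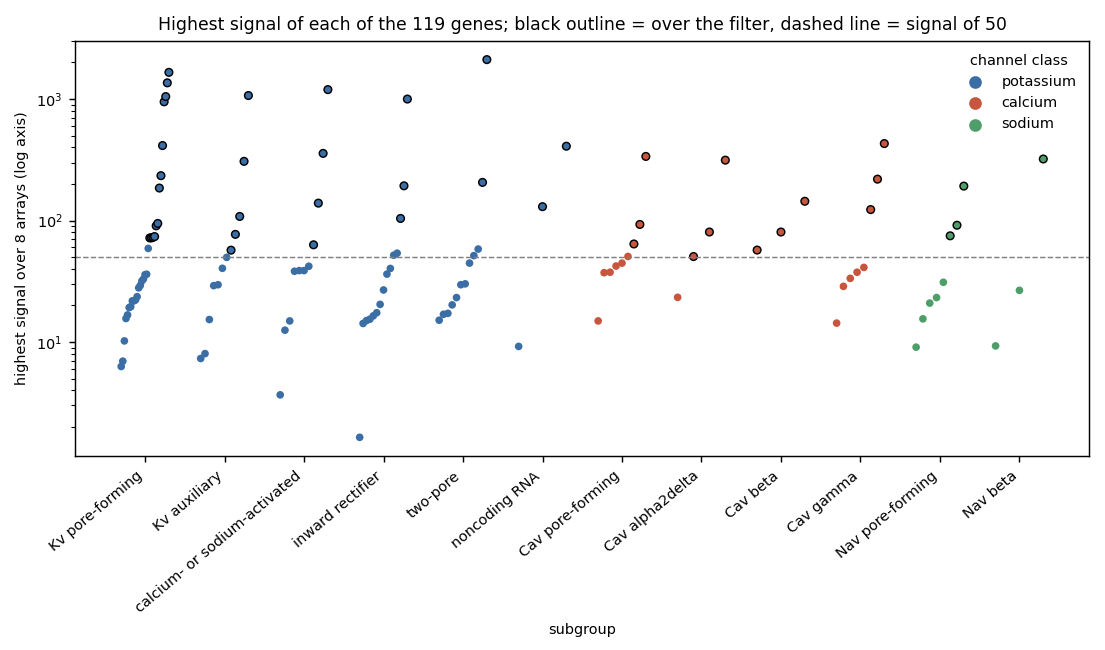
Each point is 1 of the 119 genes at its highest signal over the 8 arrays (log axis, arbitrary units), by subgroup and coloured by channel class, with a black outline where the gene passed the filter. A dashed line marks the signal of 50, and 74 genes did not pass the filter, including 12 of the 15 inward rectifier genes and 10 of the 12 two-pore genes.

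The class means differed by small amounts over the 4 groups. Over the 29 potassium channel genes the mean log2 level was 7.37 in MHM + GF at 3 days, 7.38 at 7 days, 7.3 in rcCHIL3 at 3 days and 7.29 at 7 days. For the 12 calcium channel genes it was 6.51 and 6.65 in MHM + GF and 6.77 and 6.7 in rcCHIL3. The 4 sodium channel genes had 6.9 and 7.07 in MHM + GF and 6.85 and 6.62 in rcCHIL3. The mean over all 23322 probe sets tested lay between 8.02 and 8.06 in the 4 groups. The calcium class mean was thus lowest in MHM + GF at 3 days, where both arrays lay at 6.51 to 6.52 against 6.61 to 6.84 on the other 6 arrays. Of the 12 calcium channel genes 7 were lowest in that group and 4 highest. The sodium class mean was lowest in rcCHIL3 at 7 days, at 6.58 to 6.66 against 6.84 to 7.11 elsewhere. Of the 4 sodium channel genes 2 were lowest there and 1 highest. These means are given as a description, with no test.

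At 3 days 13 of the 45 channel genes tested were higher in rcCHIL3 than in MHM + GF and 11 were lower, by limma with a Benjamini-Hochberg adjusted p under 0.05. That is 53.3% of the genes tested, where 41.5% of all probe sets passed, 20.5% as higher and 21.0% as lower. With no filter 11 of the 119 channel genes were higher and 10 lower, against 4258 and 4480 of 45101 probe sets. With the filter the potassium group had 7 higher and 9 lower, with a median log2 change of -0.13, and 6 of the 29 changed by more than 1 in either direction. In the calcium group 6 were higher and 2 lower with a median of 0.46, although the median was -0.01 when each array was rescaled to an average of 100, a setting under which fewer genes pass the filter. The calcium calls included Cacna2d2 and Cacna2d3 (higher) and Cacnb2 (lower), which reached 50 in 1 medium alone. Among the potassium calls the same held for Kcna1 (higher) and for Kcnc4, Kcnj16 and Kcnmb4os2 (lower). None of the 4 sodium channel genes passed, Scn3b coming nearest (adjusted p = 0.07). In the methods' t-test without adjustment 11 channel genes of all classes were higher and 10 lower, against 4074 and 4201 of 23322 probe sets. The median over all probe sets was -0.01. Leaving out either rcCHIL3 array at 3 days, which leaves 1 array in that group, lowered the calls among channel genes and among all probe sets. The gap between their shares narrowed in both fits.

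At 7 days the balance lay on the lower side, with 7 of the 45 genes higher in rcCHIL3 and 16 lower (51.1%, against 35.8% of all probe sets, 16.2% higher and 19.6% lower). With no filter 6 of the 119 channel genes were higher and 14 lower, against 3179 and 3714 of 45101 probe sets. On the signals as deposited, without the common trimmed mean, the share of higher calls among all called probe sets was 63.8% in place of 45.2%, while the channel genes had 8 higher and 12 lower. Of the potassium group 4 were higher and 12 lower with a median of -0.29, which became -0.07 on the signals as deposited and 0.01 with no filter. The potassium calls included Kcna1 (higher) and Kcnab1, Kcnc2, Kcnj16 and Kcnmb4os2 (lower), which reached 50 in 1 medium alone. A difference between media was built into their passing the filter. The calcium group had 3 higher and 2 lower with a median of 0.01, and the sodium group 0 higher and 2 lower with a median of -0.50. Over all probe sets the median was -0.03.

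**Figure D2:**
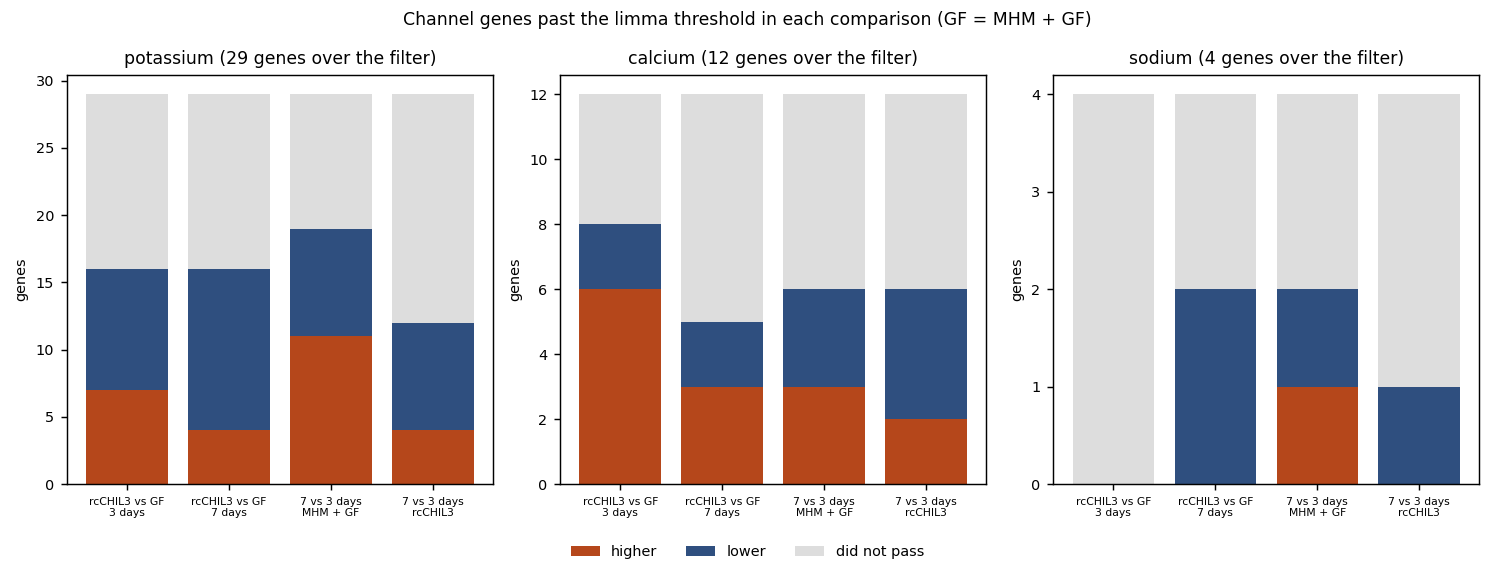
Bars stack the channel genes that were higher, lower or did not pass the limma threshold (vertical axis, genes) in the potassium (29), calcium (12) and sodium (4) groups for each of 4 comparisons. At 3 days 6 of the 12 calcium channel genes were higher in rcCHIL3 and 2 lower, and at 7 days 4 of the 29 potassium channel genes were higher and 12 lower, where 20.5% and 16.2% of all probe sets were higher and 21.0% and 19.6% lower at the respective days. The calcium calls at 3 days included Cacna2d2, Cacna2d3 and Cacnb2, which reached a signal of 50 in 1 medium alone. Among the potassium calls at 7 days the same held for Kcna1 (higher) and for Kcnab1, Kcnc2, Kcnj16 and Kcnmb4os2 (lower).

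More channel genes passed the threshold over time in MHM + GF than in rcCHIL3, and the same held for all probe sets. Between 3 and 7 days 15 rose and 12 fell in MHM + GF (60%, against 48.8% of all probe sets, 26.0% higher and 22.8% lower). In rcCHIL3 6 rose and 13 fell (42.2%, against 28.6%, 14.8% higher and 13.8% lower). A contrast of the rcCHIL3 effect at 7 days minus that at 3 days passed for 21 genes, 7 of them above 0 and 14 below (46.7%, against 33.2%, 15.9% above and 17.3% below). On the signals as deposited that split was 8 and 8, against 4035 above and 1965 below of 23379 probe sets. With each array rescaled to an average of 100 it was 8 and 6, against 2940 and 3555 of 15712. With no filter 9 of the 119 genes were above and 8 below, against 3098 and 3314 of 45101 probe sets. Leaving out any 1 array, which leaves 1 array in its group, lowered the count below 0 among channel genes and among all probe sets. The 5 comparisons share arrays and are not independent of each other.

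**Figure D3:**
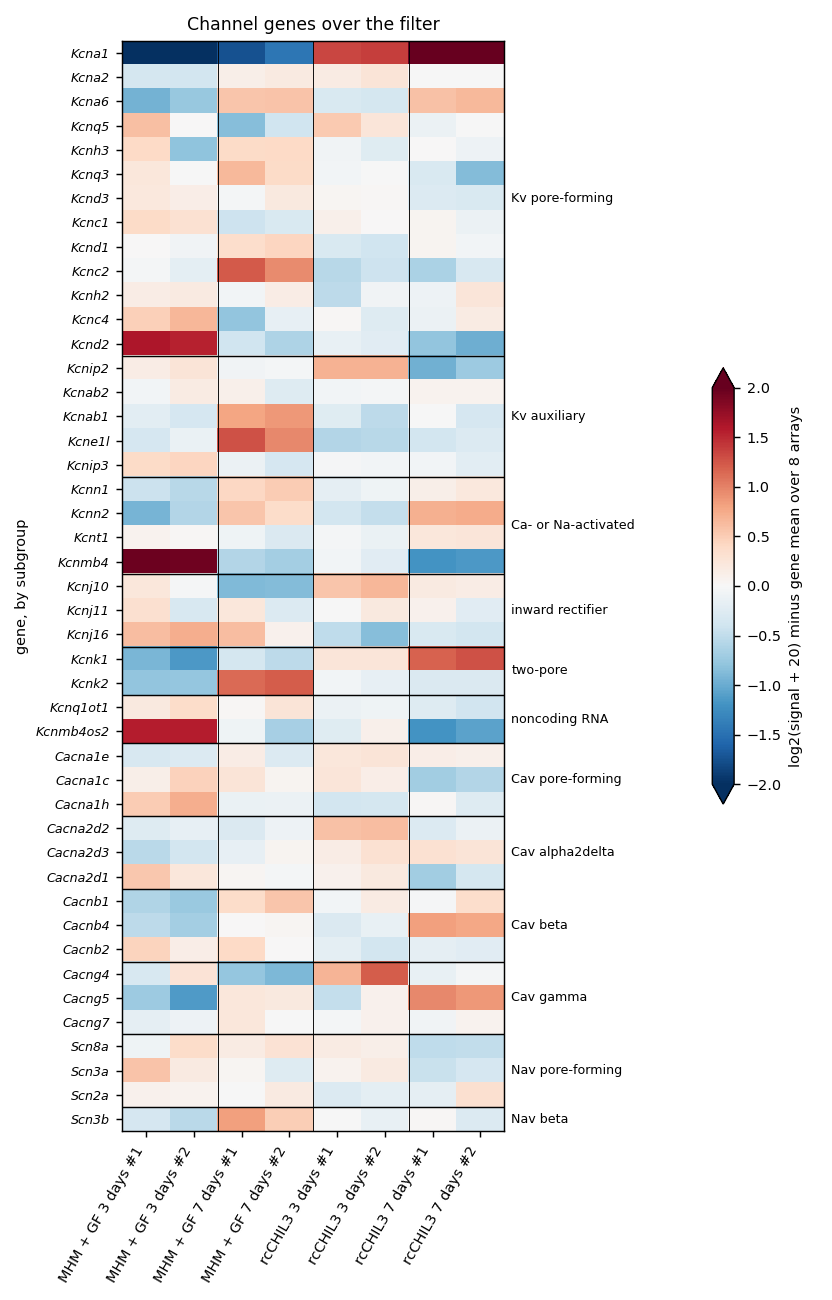
Rows are the 45 channel genes that passed the filter, ordered by subgroup, and columns are the 8 arrays. Colour gives log2(signal + 20) minus the gene's mean over the arrays, from blue (lower) to red (higher), with values beyond 2 in either direction drawn in the end colours, as for Kcna1, which was low on all 4 MHM + GF arrays and high on all 4 rcCHIL3 arrays.

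Kcna1, which encodes the Kv1.1 pore of low-threshold delayed rectifier channels, had the largest change of the 45 genes at both days. Its signals were 12.3 and 14 in MHM + GF at 3 days and 27.6 and 38.6 at 7 days, all under 50. In rcCHIL3 they were 382 and 394 at 3 days and 949 and 823 at 7 days. All 4 rcCHIL3 arrays lay far above all 4 MHM + GF arrays. With dim signals raised to 50 the difference was at least 7.76-fold at 3 days and at least 17.7-fold at 7 days (log2 changes of 3.62 ± 0.14 and 4.1 ± 0.14, SE, adjusted p = 4.3e-09 and 9.7e-09). From 3 to 7 days it rose by 1.15 ± 0.14 in rcCHIL3 (adjusted p = 9.3e-05). Kcna1 also rose in MHM + GF (0.67 ± 0.14, adjusted p = 0.0017), though between dim signals and in neither other probe set over the filter (0.16 and 0.05, adjusted p = 0.46 and 0.84). Both other Kcna1 probe sets over the filter were higher in rcCHIL3 too, by 2.83 and 2.17 at 3 days and by 3.56 and 2.97 at 7 days.

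The other 2 Kv1 genes over the filter were called over time as well as between media, though their second probe sets gave fewer calls. Kcna2, the Kv1.2 pore, had signals of 1078 and 1063 in MHM + GF at 3 days and of 1507 and 1569 at 7 days, and in rcCHIL3 of 1553 and 1659 at 3 days and 1368 and 1380 at 7 days. The 3-day control arrays were thus the low ones, and rcCHIL3 was higher at 3 days (log2 change 0.58 ± 0.07, adjusted p = 3.9e-05) but not past the threshold at 7 days (-0.16 ± 0.07, adjusted p = 0.087). A second Kcna2 probe set was higher at 3 days (0.68, adjusted p = 0.0018) but gave no call over time in MHM + GF (0.24, adjusted p = 0.16) or in rcCHIL3 (-0.19, adjusted p = 0.32). Kcna6, the Kv1.6 pore, had 64 and 75.6 in MHM + GF at 3 days against 111 and 107 in rcCHIL3, and 218 and 221 at 7 days against 222 and 234. It rose over time in both media, by 1.42 ± 0.12 in MHM + GF and 0.94 ± 0.12 in rcCHIL3 (adjusted p = 2.3e-06 and 0.00014), and the media differed at 3 days (0.53 ± 0.12, adjusted p = 0.0041). At 7 days both rcCHIL3 arrays lay just above the controls, a difference that did not pass (0.05 ± 0.12, adjusted p = 0.78). A second Kcna6 probe set gave no call at 3 days (0.33, adjusted p = 0.22) or over time in rcCHIL3 (0.12, adjusted p = 0.69). On the RefSeq map Kcna1 and Kcna6 lie within 500 kb of each other.

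Kcnd2, the Kv4.2 pore of the A-type current that delays repeated firing, was high in MHM + GF at 3 days alone. Signals there were 1048 and 986, against 293 and 277 in rcCHIL3 at 3 days. At 7 days they were 243 and 207 in MHM + GF and 180 and 156 in rcCHIL3. The 3-day difference was a 3.57-fold lower mean signal in rcCHIL3 (log2 change -1.77 ± 0.11, adjusted p = 1.6e-07), and the fall over time in MHM + GF was of like size (-2.08 ± 0.11, adjusted p = 3.9e-08). Both other Kcnd2 probe sets over the filter were lower at 3 days as well (-1.74 and -1.61). At 7 days the change was -0.38 ± 0.11 (adjusted p = 0.015), a call that neither of the other probe sets gave (-0.15 and 0.24, adjusted p = 0.38 and 0.32). That 7-day call was also lost without the first MHM + GF array (adjusted p = 0.1) or without the second rcCHIL3 array (adjusted p = 0.11), and on the signals as deposited (-0.28, adjusted p = 0.2). Kcnd3, the Kv4.3 pore, varied far less, from 939 to 1360 over the 8 arrays, and passed at 7 days (-0.37 ± 0.08, adjusted p = 0.005), while its other probe set over the filter did not (-0.29, adjusted p = 0.21).

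Kcnmb4, the beta4 subunit that slows BK channels in brain, had the same shape. Its signals were 1196 and 1183 in MHM + GF at 3 days, 190 and 176 at 7 days, 282 and 248 in rcCHIL3 at 3 days, and 117 and 121 at 7 days. At each day both rcCHIL3 arrays lay below both MHM + GF arrays, and the 3-day controls stood far above the rest. The log2 change was -2.09 ± 0.1 at 3 days and -0.55 ± 0.1 at 7 days (adjusted p = 2e-08 and 0.0012), and over time it fell by 2.57 on the log2 scale in MHM + GF and by 1.04 in rcCHIL3. Kcnmb4os2, a noncoding RNA gene that overlaps Kcnmb4, had signals of 130 and 129 in MHM + GF at 3 days and was under 50 on the other 6 arrays. At 3 days it was at least 2.59-fold lower in rcCHIL3 (log2 change -1.63 ± 0.22, adjusted p = 0.00013). Of the 7 stem or progenitor markers measured, 5 were lower and 1 higher in rcCHIL3 at 3 days, and 3 lower and 0 higher at 7 days. Their summed signal was 26412 to 27193 and 24697 to 25383 in MHM + GF at 3 and 7 days and 19153 to 20272 and 21993 to 22626 in rcCHIL3. Over time 1 of the 7 rose and 3 fell in MHM + GF, and 3 rose and 2 fell in rcCHIL3. Nes, which encodes the progenitor filament nestin, had the same shape as Kcnd2 and Kcnmb4, with mean signals of 551 and 87.4 in MHM + GF and 73 and 39.8 in rcCHIL3 at 3 and 7 days. Other markers of the list did not. In MHM + GF Prom1 had means of 777 and 1823 at 3 and 7 days, and Egfr of 2420 and 2336. Of the 7 oligodendrocyte progenitor markers 6 fell over time in each medium, from sums of 9725 to 10051 to 4961 to 5069 in MHM + GF and of 10471 to 11049 to 4210 to 4242 in rcCHIL3. The part of either cell type in these results was not tested.

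The Kv3 genes, whose fast channels allow rapid firing, did not move together. Kcnc1 had signals of 414 and 391 in MHM + GF at 3 days and 229 and 249 at 7 days, with 338, 315, 326 and 286 in rcCHIL3. It was lower in rcCHIL3 at 3 days (-0.29 ± 0.1, adjusted p = 0.038) and higher at 7 days (0.33 ± 0.1, adjusted p = 0.024). Neither other Kcnc1 probe set over the filter gave a call at 3 days (-0.27 and -0.29, adjusted p = 0.11 and 0.16) or at 7 days (0.13 and -0.15, adjusted p = 0.45 and 0.48). Kcnc2 reached 50 in MHM + GF at 7 days alone, with 94.6 and 74.7 against 28 and 22.9 at 3 days and 11.7 to 19.4 in rcCHIL3. It was at least 1.69-fold lower in rcCHIL3 at 7 days (log2 change -1.56 ± 0.2, adjusted p = 0.00013). Kcnc4 was the reverse, with 61 and 72.7 in MHM + GF at 3 days and all other arrays between 13.8 and 45.2. Its 3-day difference, at least 1.34-fold lower in rcCHIL3, had an adjusted p of 0.03, a call lost without the second rcCHIL3 array (0.18) or either MHM + GF array (0.057 and 0.14), with no filter (0.089) and with a floor of 10 in place of the offset (0.061).

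Kcnq3, a subunit of the M-current that holds neurons near rest, had signals of 133 and 111 in MHM + GF at 3 days, 185 and 152 at 7 days, 106 and 111 in rcCHIL3 at 3 days, and 86.3 and 51.9 at 7 days. The groups met at 3 days and stood apart at 7 days (-1.1 ± 0.18, adjusted p = 0.00081). Of the remaining Kv pore genes over the filter, Kcnq5 fell in MHM + GF with time (-0.93 ± 0.23, adjusted p = 0.0063) and Kcnd1 rose (0.42 ± 0.15, adjusted p = 0.036). Kcnh2 and Kcnh3 passed in no comparison. For Kcnh3 the MHM + GF arrays at 3 days had 73.7 and 20.8, a wider spread than the 40.2 to 73.7 of the other 6 arrays.

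Among the 5 Kv auxiliary genes tested 1 was higher and 2 lower at 3 days, where 41.5% of all probe sets passed in either direction, and 0 were higher and 3 lower at 7 days, where 35.8% passed. The 3 included Kcnab1, which passed the filter only through the group where it was high. Kcne1l, also named Kcne5, which encodes a small single-pass subunit, had signals of 338 and 392 in MHM + GF at 3 days and 1069 and 859 at 7 days, against 279 and 287, then 327 and 353, in rcCHIL3. It rose over time in MHM + GF by 1.35 ± 0.11 (adjusted p = 2.3e-06) and gave 0.25 ± 0.11 in rcCHIL3 (adjusted p = 0.13), and at 7 days the difference was -1.44 ± 0.11 (adjusted p = 3.2e-06). The smaller 3-day difference of -0.34 (adjusted p = 0.03) was lost without the second MHM + GF array (adjusted p = 0.19) or either rcCHIL3 array (0.12 and 0.089). Kcnab1, the Kv-beta1 subunit that speeds inactivation, had 71.6 and 76.9 in MHM + GF at 7 days and at most 33 elsewhere, at least 1.48-fold lower in rcCHIL3 at that day (log2 change -1 ± 0.19, adjusted p = 0.0022).

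Kcnip2, a calcium-binding partner of Kv4 pores, differed between the media in opposite directions at the 2 days. Its signals were 67.2 and 74.1 in MHM + GF at 3 days against 108 and 108 in rcCHIL3, and 54.7 and 56.3 at 7 days against 20.3 and 27.6. At 3 days it was higher in rcCHIL3 (0.5 ± 0.16, adjusted p = 0.024), a call lost without any 1 of the 4 arrays compared (adjusted p = 0.052 to 0.11). At 7 days it was at least 1.11-fold lower (-0.78 ± 0.16, adjusted p = 0.0025), and within rcCHIL3 it fell at least 2.16-fold over time (-1.55 ± 0.16, adjusted p = 2.8e-05). Kcnip3, another Kv4 partner, was lower at 3 days (-0.45 ± 0.11, adjusted p = 0.0067) but not in its second probe set (-0.06, adjusted p = 0.85), and Kcnab2 passed in no comparison.

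Inward rectifiers split. Kcnj10, the Kir4.1 channel with which astrocytes take up potassium, had signals of 728 and 610 in MHM + GF at 3 days and 329 and 331 at 7 days, against 926 and 1000, then 709 and 693, in rcCHIL3. The rcCHIL3 arrays were above the controls of the same day at both days, by 0.52 ± 0.09 at 3 days and 1.04 ± 0.09 at 7 days (adjusted p = 0.00084 and 8.5e-06). It fell over time in both media (-0.97 ± 0.09 in MHM + GF and -0.45 ± 0.09 in rcCHIL3, adjusted p = 6e-06 and 0.0038). Kcnj16, the Kir5.1 subunit that joins Kir4.1 in mixed channels, went the other way, with 94.7 and 104 in MHM + GF at 3 days and 94.5 and 59.2 at 7 days against 32.9, 21.4, 40.5 and 37.9 in rcCHIL3. It was dim in rcCHIL3 at both days and at least 1.99-fold lower at 3 days (-1.35 ± 0.2, adjusted p = 0.00024). At 7 days it was at least 1.54-fold lower (-0.69 ± 0.2, adjusted p = 0.021), but -0.42 with an adjusted p of 0.17 without the first MHM + GF array. Without either rcCHIL3 array the 7-day adjusted p was 0.062 and 0.09. A second Kcnj16 probe set was lower at both days (-0.9 and -0.67). Kcnj11, the pore of the ATP-sensitive channel, passed in no comparison.

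The 8 astrocyte markers listed all passed the filter, 4 were higher and 3 lower in rcCHIL3 at 3 days and 3 higher and 2 lower at 7 days, and their summed signal was 20052 to 20084 and 24033 to 25388 at 3 days and 30100 to 30519 and 29628 to 31466 at 7 days, in MHM + GF and rcCHIL3 in turn. Over time 4 of the 8 markers rose and 1 fell in MHM + GF, and 4 rose and 0 fell in rcCHIL3. Kcnj10 fell between the days in both media, and the part of astrocytes in its result was not tested.

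Both two-pore genes over the filter were higher in rcCHIL3 at 3 days. Kcnk1, the weak inward rectifier TWIK-1, had signals of 29.9 and 22.2 in MHM + GF at 3 days and 53.6 and 45.7 at 7 days, against 91.6 and 91, then 193 and 206, in rcCHIL3. It was at least 1.83-fold higher in rcCHIL3 at 3 days and 4.02-fold higher in mean signal at 7 days (log2 changes of 1.28 ± 0.15 and 1.66 ± 0.15, adjusted p = 3.9e-05 and 1.1e-05). A second Kcnk1 probe set gave 0.52 at 3 days, not past the threshold (adjusted p = 0.085), and 1.46 at 7 days. Kcnk2, the mechanosensitive leak channel TREK-1, changed sign between the days. Its signals were 511 and 516 in MHM + GF at 3 days against 862 and 797 in rcCHIL3, and 1998 and 2112 at 7 days against 733 and 727. It was higher in rcCHIL3 at 3 days (0.67 ± 0.07, adjusted p = 2.2e-05) and lower at 7 days (-1.47 ± 0.07, adjusted p = 1.1e-07). The rise of Kcnk2 in MHM + GF between the days was 1.96 ± 0.07 (adjusted p = 4.4e-09), while in rcCHIL3 the change was -0.18 ± 0.07 (adjusted p = 0.092).

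**Figure D4:**
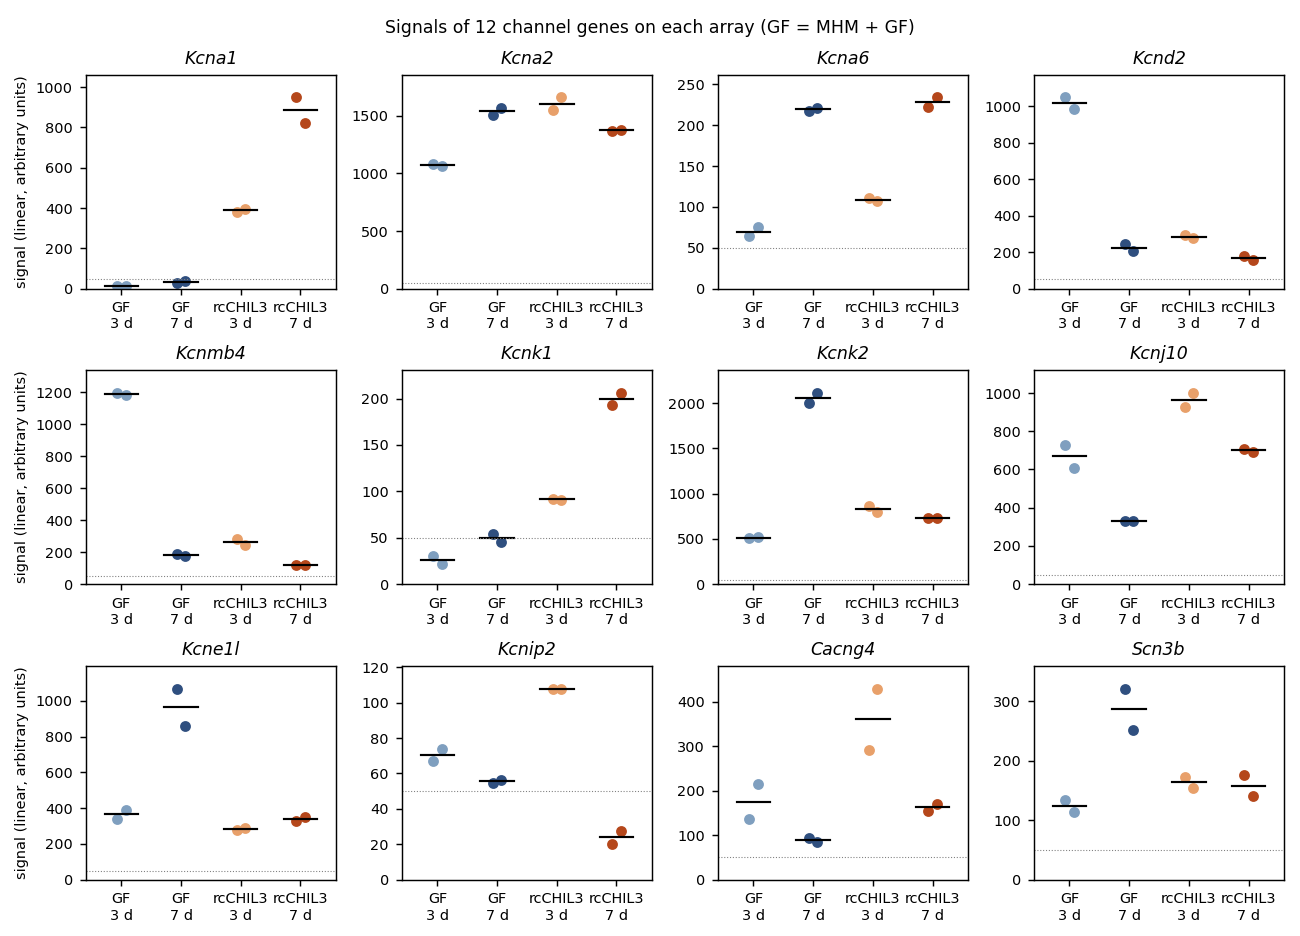
Points are the signals (linear, arbitrary units, axes from 0) of 12 channel genes on each of the 8 arrays, with a short line at the mean of the 2 arrays of a group and a dotted line at 50. Kcna1 and Kcnk1 were higher in rcCHIL3 at both days, Kcnd2 and Kcnmb4 were high in MHM + GF at 3 days alone, and Kcnk2 and Kcne1l were high in MHM + GF at 7 days alone.

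Among small-conductance calcium-activated channels Kcnn2 passed over time in both media and not between media. Its signals were 97.7 and 129 in MHM + GF and 155 and 141 in rcCHIL3 at 3 days, and 309 and 269 against 347 and 357 at 7 days. It rose by 1.22 ± 0.13 and 1.15 ± 0.13 in the 2 media (adjusted p = 1.6e-05 and 6.9e-05), and the media differed by 0.34 and 0.27 at the 2 days, neither past the threshold (adjusted p = 0.057 and 0.13). At 3 days the adjusted p was 0.014 without the second MHM + GF array. Kcnn1 rose in MHM + GF (0.95 ± 0.14, adjusted p = 0.00015), and the sodium-activated Kcnt1 passed in no comparison. Kcnq1ot1, an imprinted antisense RNA of the Kcnq1 locus, was lower in rcCHIL3 at both days (-0.39 ± 0.11 and -0.45 ± 0.11, adjusted p = 0.014 and 0.0075), but 1 other probe set gave -0.03 at 3 days (adjusted p = 0.9), and at 7 days its other probe sets over the filter gave 0.28 and -0.04 (adjusted p = 0.25 and 0.85) and the mean of its probe sets gave -0.07 (adjusted p = 0.59). The 3-day call was lost without the second MHM + GF array or either rcCHIL3 array (adjusted p = 0.057 to 0.1), and the 7-day call without the second array of either medium (0.068 and 0.06) or on the signals as deposited (0.1). Kcnq1ot1 signals ran from 237 to 409.

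The 250 bases upstream of the start of Kcnd2, Kcne1l and Kcnj10 are shown because these subunit genes were called in the same direction at both days and RefSeq gives each a single start that is also the start of the gene. They are from RefSeq on GRCm38.p6, at chr6:21215096-21215345 on the plus strand, chrX:142306199-142306448 on the minus strand and chr1:172340960-172341209 on the plus strand. Capitals mark the GC box GGGCGG or its complement CCGCCC.
Kcnd2: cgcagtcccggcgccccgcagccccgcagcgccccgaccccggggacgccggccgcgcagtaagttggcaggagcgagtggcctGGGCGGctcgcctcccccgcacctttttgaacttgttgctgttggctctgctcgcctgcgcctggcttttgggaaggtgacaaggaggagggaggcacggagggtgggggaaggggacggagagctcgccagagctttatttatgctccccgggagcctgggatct
Kcne1l: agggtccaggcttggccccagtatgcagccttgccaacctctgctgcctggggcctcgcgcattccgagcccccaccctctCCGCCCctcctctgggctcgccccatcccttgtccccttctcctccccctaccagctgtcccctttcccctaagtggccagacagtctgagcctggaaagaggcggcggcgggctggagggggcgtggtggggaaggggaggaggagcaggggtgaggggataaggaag
Kcnj10: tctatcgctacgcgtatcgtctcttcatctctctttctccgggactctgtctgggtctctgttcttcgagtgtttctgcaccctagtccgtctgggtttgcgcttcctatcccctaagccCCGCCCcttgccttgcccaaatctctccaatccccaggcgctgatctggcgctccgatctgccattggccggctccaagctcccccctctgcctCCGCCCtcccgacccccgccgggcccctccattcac
The windows held 1, 1 and 2 such matches, with 22, 9 and 17 CpG pairs and GC contents of 68.8%, 68% and 62%. Of the 119 genes 91 matched the RefSeq table, with 126 windows, and 42.9% of these held the motif, against 32.7% of 32851 windows of the same length over all genes. Median GC content was 58% and 52.4%. The lower genes Kcnd2 and Kcne1l and the higher gene Kcnj10 all held the motif.

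Calcium channel pores were few. Cacna1h, the Cav3.2 T-type channel that opens near rest, had signals of 288 and 337 in MHM + GF at 3 days and 177 and 179 at 7 days, against 148 and 150, then 200 and 161, in rcCHIL3. The 3-day control arrays stood above the other 6, with a difference of -0.97 ± 0.12 at 3 days (adjusted p = 7.3e-05) and of 0.01 ± 0.12 at 7 days (adjusted p = 0.95). Cacna1c, the L-type Cav1.2 pore, was dim in rcCHIL3 at 7 days with 30.6 and 34.6 and lay between 65.3 and 92.8 on the other arrays. It was at least 1.43-fold lower in rcCHIL3 at 7 days (-0.8 ± 0.17, adjusted p = 0.0036). Cacna1e, the R-type Cav2.3 pore, was at least 1.26-fold higher in rcCHIL3 at 3 days (0.54 ± 0.18, adjusted p = 0.029).

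Of the 12 calcium channel genes tested 9 were auxiliary, and of these 5 were higher and 1 lower in rcCHIL3 at 3 days, where 20.5% of all probe sets were higher and 21.0% lower. Among the higher genes Cacna2d2 and Cacna2d3 reached 50 in rcCHIL3 alone, and the lower gene, Cacnb2, in MHM + GF alone. A difference between media was thus built into their passing the filter. Cacng4 and Cacng5, neighbours on the RefSeq map that encode gamma subunits known as partners of AMPA receptors, were higher in rcCHIL3 at both days but moved oppositely in time. Cacng4 signals were 136 and 215 in MHM + GF and 292 and 430 in rcCHIL3 at 3 days, and 93.5 and 84 against 155 and 170 at 7 days. The changes were 0.97 ± 0.2 and 0.75 ± 0.2 (adjusted p = 0.0022 and 0.013), although the 2 arrays of each medium differed widely at 3 days. Its 7-day call was lost without the second array of either medium (adjusted p = 0.067 and 0.073). Cacng4 fell over time by 0.82 on the log2 scale in MHM + GF and by 1.04 in rcCHIL3 (adjusted p = 0.0052 and 0.0024). Its second probe set was higher in rcCHIL3 at 3 days (0.85, adjusted p = 0.0012) but gave no call at 7 days (0.23, adjusted p = 0.28) or over time in MHM + GF (-0.07, adjusted p = 0.74). Cacng5 signals were 24.4 and 13.4 in MHM + GF against 32.7 and 58 in rcCHIL3 at 3 days, and 65.4 and 64 against 123 and 113 at 7 days. Cacng5 rose over time in both media (1.14 ± 0.21 and 1.1 ± 0.21, adjusted p = 0.00096 and 0.0024). Its media differences of 0.74 and 0.7 (adjusted p = 0.015 and 0.023) were lost without the second array of either medium at 3 days (0.11 and 0.16) and without any 1 of the 4 arrays at 7 days (0.071 to 0.11). Cacng7 passed in no comparison, with signals of 161 to 219.

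Cav beta subunits bring the pore to the membrane. Cacnb1 signals were 25.3 and 20.9 in MHM + GF at 3 days and 68 and 80.4 at 7 days, against 46.1 and 56.8, then 47.2 and 67.7, in rcCHIL3. It rose at least 1.48-fold with time in MHM + GF (1.13 ± 0.19, adjusted p = 0.00043), and was higher in rcCHIL3 at 3 days (0.73 ± 0.19, adjusted p = 0.0084), where without the second rcCHIL3 array the adjusted p was 0.073. Cacnb4 signals were 44.7 and 38.2, then 73.9 and 75.5, in MHM + GF and 56.4 and 64.1, then 144 and 139, in rcCHIL3. At 7 days both rcCHIL3 arrays were the highest of the 8, by 0.77 ± 0.14 (adjusted p = 0.0017), and a second probe set gave 0.48 (adjusted p = 0.07). Its 3-day difference of 0.39 fell just short (adjusted p = 0.05 as rounded) and passed under 8 of the other settings. Cacnb2 was lower in rcCHIL3 at 3 days (-0.58 ± 0.2, adjusted p = 0.037), with 29.5 and 24 against 57.1 and 42.6, and it passed the filter only through 1 array of each MHM + GF group.

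Of the alpha2delta genes, whose products raise the number of channels at the surface, Cacna2d2 and Cacna2d3 were higher in rcCHIL3 at 3 days. Cacna2d2 had 78.2 and 80.4 there and 33.8 to 41.3 on the other 6 arrays, at least 1.59-fold higher (0.81 ± 0.16, adjusted p = 0.0022). Cacna2d3 had 43 and 50.5 against 19.3 and 24.3 (0.67 ± 0.18, adjusted p = 0.0098), and it passed the filter only through 1 array of each rcCHIL3 group. Cacna2d1, the binding site of gabapentin, had signals of 314 and 250 in MHM + GF at 3 days, 216 and 204 at 7 days, 225 and 244 in rcCHIL3 at 3 days, and 123 and 161 at 7 days. It was lower in rcCHIL3 at 7 days (-0.52 ± 0.14, adjusted p = 0.014), a call lost without the first rcCHIL3 array (-0.35, adjusted p = 0.11), without the first MHM + GF array (adjusted p = 0.062) or on the signals as deposited (adjusted p = 0.06).

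Sodium channel genes did not pass between media at 3 days, and 2 of the 4 tested were lower in rcCHIL3 at 7 days, where 19.6% of all probe sets were lower. Scn8a, the Nav1.6 pore of the axon initial segment, had signals of 135 and 192 in MHM + GF at 3 days, 163 and 180 at 7 days, 164 and 157 in rcCHIL3 at 3 days, and 95 and 96.6 at 7 days. Its 2 arrays of rcCHIL3 at 7 days were the lowest of the 8, with a difference of -0.72 ± 0.15 (adjusted p = 0.003), and its other 2 probe sets over the filter gave log2 changes of -0.96 and -0.84. Scn3b, a beta subunit that shapes Nav gating, had 133 and 113 in MHM + GF at 3 days and 321 and 252 at 7 days, against 173 and 154, then 176 and 140, in rcCHIL3. It rose in MHM + GF (1.09 ± 0.15, adjusted p = 9.7e-05), showed -0.05 ± 0.15 in rcCHIL3 (adjusted p = 0.84) and was lower in rcCHIL3 at 7 days (-0.78 ± 0.15, adjusted p = 0.0019). Scn2a had 43.2 to 74.8 and passed in no comparison. Scn3a, which lies beside Scn2a on the RefSeq map and is known for early brain development, fell in MHM + GF (-0.49 ± 0.18, adjusted p = 0.046) from 91.4 and 64.8 to 56.9 and 42.3.

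Several lists of cell type markers moved with some of these genes, and their part in the results was not tested. Kcnk2, Kcne1l and Scn3b were each highest in MHM + GF at 7 days and lower in rcCHIL3 at that day, as were Kcnc2 and Kcnab1, which passed the filter only through that group. All 10 neuroblast and neuron markers (Dcx, Tubb3, Dlx1, Dlx2, Gad1, Map2, Rbfox3, Snap25, Syt1 and Stmn2) passed the filter. Of these, 1 was higher and 6 lower in rcCHIL3 at 7 days, and their summed signal was 9744 to 9890 in MHM + GF against 4325 to 4476. At 3 days 8 were higher and 2 lower, with sums of 4739 to 4900 against 6415 to 6536, while of the 5 channel genes Kcnk2 was higher, Kcne1l lower and the others not called. The 6 mural or fibroblast markers had a sum of 1377 to 1532 in MHM + GF at 7 days and of 305 to 555 in the other groups. Of these, Pdgfrb and Rgs5 were lower in rcCHIL3 at 7 days (-3.09 and -2.09), Acta2 was not called, and Col1a1, Col1a2 and Lum were under 50 on all arrays.

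Kcna1 and Kcnk1 were higher in rcCHIL3 at both days. Myelinating oligodendrocyte markers were higher there at 3 days and in part at 7 days, and the ependymal markers over the filter at 7 days. Of the 7 myelinating oligodendrocyte markers measured 6 passed the filter, and Mog was under 50 on all arrays. All 6 were higher at 3 days, Mobp between dim signals (means of 7.55 and 20.9), and Mag, Opalin and Cldn11 were higher at 7 days. Sums over the list were 9769 to 9785 against 16832 to 17434 at 3 days and 15454 to 15762 against 18017 to 19331 at 7 days. Cldn11, a tight junction protein of myelin, changed by 2.31 and 1.29 at the 2 days and Mag, a myelin adhesion molecule, by 1.82 and 1.08. Of the 5 ependymal markers Foxj1, Rsph1 and Dynlrb2 passed the filter and were all higher at 7 days, while at 3 days Foxj1 was higher and Rsph1 lower. The ependymal sums were 256 to 295 against 408 to 421 at 3 days and 639 to 743 against 1414 to 1477 at 7 days, with Ccdc153 and Tmem212 under 50 on all arrays.

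**Figure D5:**
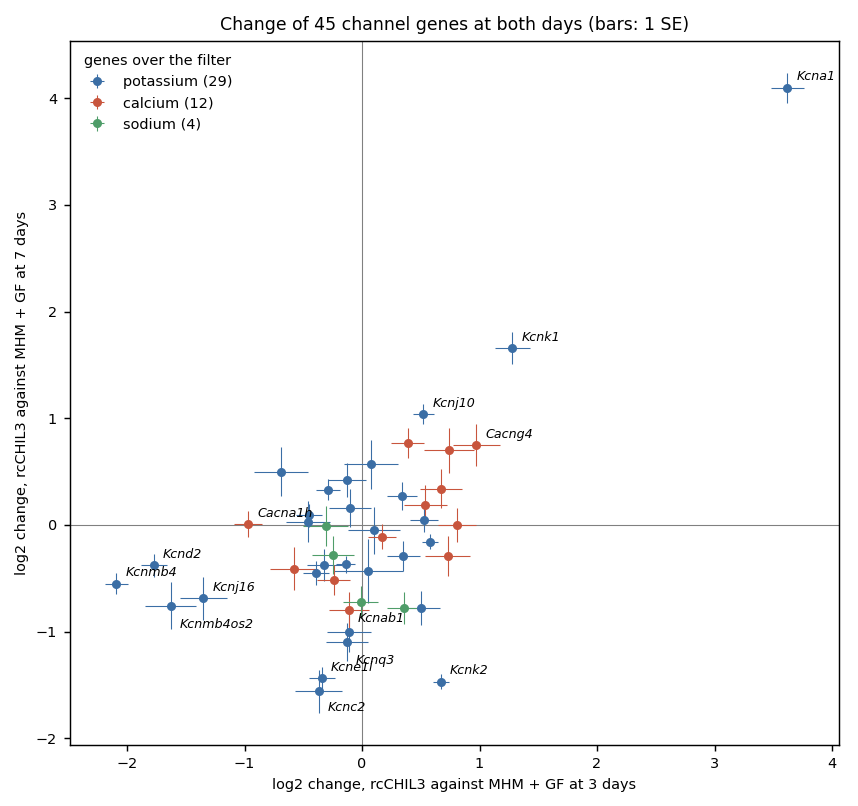
Each point is 1 of the 45 channel genes over the filter, with its log2 change in rcCHIL3 against MHM + GF at 3 days (horizontal) and at 7 days (vertical), coloured by class, and bars of 1 SE from limma. Kcna1 lies far from the rest at 3.62 and 4.1, and Kcnmb4 and Kcnd2 lie to the left. Kcnk2 lies to the lower right, higher in rcCHIL3 than in MHM + GF at 3 days and lower at 7 days.

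A list of 38 further genes that work with these channels (other ion channels, ankyrins, pump subunits and channel partners) had 32 with a probe set and 23 over the filter. Of the 23, 7 were higher and 2 lower in rcCHIL3 at 3 days and 4 higher and 7 lower at 7 days, where 41.5% and 35.8% of all probe sets passed in either direction. Dpp6, which joins Kv4 pores in A-type channels, had mean signals of 332 in MHM + GF at 3 days, 131 at 7 days, 45.2 in rcCHIL3 at 3 days and 73.5 at 7 days. It was lower in rcCHIL3 at both days as Kcnd2 was (-2.43 ± 0.18 and -0.66 ± 0.18, adjusted p = 9.3e-07 and 0.015). Fgf13 and Fgf14, which bind the tails of sodium channels, were both lower at 7 days (-1.14 ± 0.1 and -1.24 ± 0.15, adjusted p = 6.1e-06 and 7.8e-05). Of the same family Fgf12 was lower (-0.67 ± 0.16, adjusted p = 0.0073) and Fgf11 higher (1.01 ± 0.1, adjusted p = 1.4e-05) at 7 days. Ank3, the ankyrin that clusters Nav and Kcnq channels at the initial segment, was higher at 3 days (1.34 ± 0.17, adjusted p = 8.1e-05). Atp1b1, a beta subunit of the sodium pump, had mean signals of 1161 and 2217 in MHM + GF and 3991 and 4897 in rcCHIL3 (log2 changes of 1.76 ± 0.07 at 3 days and 1.14 ± 0.07 at 7 days, adjusted p = 9.4e-09 and 9.4e-07).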

How the data were processed

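The authors ran MAS5 (Affymetrix Expression Console 1.1 per the labels) and deposited linear signal intensities, 1 per probe set and array. Their stated scaling average is not that of the deposited intensities, which average 267.3 to 316.6. Trimmed means (2% off each end) spread by 19%, above a tolerance of 5%, so each array was multiplied by 1 factor to a common trimmed mean. Of 45101 probe sets 34958 have 1 symbol, 932 several and 9211 none. The 23322 probe sets with at least 2 arrays at 50 went into limma 3.58.1 (R 4.3.3) as log2(signal + 20), with 4 group means, an eBayes trend and 4 residual degrees of freedom. P-values are two-sided, Benjamini-Hochberg adjusted over all 23322, and called under 0.05; ± is 1 SE. The fit was tested on simulated data. The number of arrays limits precision. Members and lists were chosen with earlier results of these data known. Genes given in full, 26, were those past the threshold with a log2 change of at least 1 in a comparison of 2 groups, or with the highest mean of their subgroup. A dim signal was raised to 50 for "at least" folds. The alternatives were other offsets, filters, scalings, tests and probe set rules, a replicate block and leaving out each array. A search of proteins for the potassium channel signature was not run. Promoters and neighbours are from RefSeq. Figures used Python 3.11.15 and matplotlib 3.10.9.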

Additional observations from a re-analysis of the deposited data

Results flagged for a closer look

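The rcCHIL3 effect at 7 days minus that at 3 days passed the limma threshold for 16 of the 26 genes given in full, where 33.2% of all probe sets passed. This contrast tests the difference between the days itself. Large changes between 2 groups were 1 of the grounds for giving a gene in full, so a high share was favoured in advance. Kcnc4, Kcnc2 and Kcnab1 passed the filter through a single group, so a difference between groups was built into their passing. Values are log2 differences with 1 SE and the adjusted p over all probe sets tested.

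The difference was above 0 for 5 genes, each of them lower in rcCHIL3 at 3 days except Kcnj10. Kcnmb4 gave 1.54 ± 0.14 (adjusted p = 9.4e-06) and Kcnd2 1.38 ± 0.15 (3.9e-05), both of which had lost most of their signal in MHM + GF by 7 days. Kcnc4 gave 1.19 ± 0.32 (0.015) and Cacna1h 0.98 ± 0.18 (0.0014). Kcnj10 gave 0.52 ± 0.13 (0.0094), since its excess in rcCHIL3 was larger at 7 days.

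For 11 genes the difference was below 0. Kcnk2 gave -2.14 ± 0.1 (adjusted p = 8.1e-08) and Kcnip2 -1.28 ± 0.22 (0.0011), and these 2 genes were called higher at 3 days and lower at 7 days. Kcne1l gave -1.1 ± 0.16 (0.00034), Kcnc2 -1.19 ± 0.28 (0.0075) and Kcnab1 -0.89 ± 0.27 (0.027). Scn3b gave -1.14 ± 0.21 (0.0016) and Scn8a -0.72 ± 0.21 (0.022). Cacnb1 gave -1.02 ± 0.26 (0.012), Kcnq3 -0.97 ± 0.26 (0.014) and Kcna2 -0.74 ± 0.1 (0.00016). Kcna6 gave -0.48 ± 0.17 (0.049).

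Several of these calls were lost in other fits. Kcna6 lost its call without any 1 of 7 of the arrays (adjusted p = 0.082 to 0.13). Kcnab1 lost it without 4 arrays in turn (0.071 to 0.099), Scn8a without 5 (0.052 to 0.07), Kcnc4 without 3 (0.052 to 0.062), Kcnq3 without 2 (0.051) and Cacnb1 without the second rcCHIL3 array at 3 days (0.052). Other settings also ended the calls of Kcna6 (offset of 50, no filter, average of 100, median centring, replicate block and signals as deposited, 0.052 to 0.36), of Kcnab1 (floor of 10, no filter and signals as deposited, 0.058 to 0.076), of Scn8a (no filter and signals as deposited, 0.052 and 0.088) and of Kcnc4 (no filter, 0.055). Second probe sets gave no call for Kcna2 (-0.44, 0.1) and Kcna6 (-0.48, 0.23), and of the 2 others of Scn8a over the filter 1 gave -1.2 (0.0015) and the other -0.62 (0.071).

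The Kcna1 difference of 0.47 ± 0.19 did not pass (0.08), but both of its other probe sets over the filter did (0.73 and 0.8, adjusted p = 0.039 and 0.023). It also passed with an offset of 50 (0.0045), an average of 100 (0.0027), the mean of probe sets (0.0069) and without the second MHM + GF array at 7 days (0.032). With 2 arrays a group, no array could be tested as standing apart from its group.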

How the results depend on the processing

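Comparisons of 2 groups were recomputed under 16 other settings, the difference between days under 13 and class medians under 12, and all without each array. Counts of calls moved by more than 1.5 times as follows. With each array rescaled to an average of 100, where the filter of 50 keeps 22 channel genes, 7 were higher and 6 lower at 3 days, 10 lower at 7 days, 8 rose in MHM + GF and 6 had a difference between days below 0. Of the 15712 probe sets kept there these counts were 4341, 3534, 3569, 4889 and 3555 in turn. The count of channel genes below 0 was 8 with no filter, 9 with a filter of 100 and 8 on the signals as deposited, a setting chosen after seeing the data, which shifted the median difference of all probe sets to 0.12. In the methods' t-test with Benjamini-Hochberg adjustment 3 were higher and 2 lower at 3 days, 0 and 0 at 7 days, 1 and 2 over time in MHM + GF and 0 and 0 in rcCHIL3. Of all 23322 probe sets it called 722 and 774, 4 and 11, 770 and 696, and 4 and 2 in turn. At 7 days and over time in rcCHIL3 few probe sets of any kind thus passed. Unadjusted it gave 11 and 10, 6 and 11, 14 and 8, and 10 and 12, against 4074 and 4201, 2998 and 3604, 4551 and 3944, and 3342 and 2995.

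On the signals as deposited the higher share of all called probe sets went from 51.7% to 69% over time in rcCHIL3 and from 47.8% to 67.2% for the difference between days. Potassium medians were -0.02, 0.10 and 0.00 at 3 days (no filter, filter of 100, average of 100). At 7 days they were -0.24 (offset of 50), -0.34 (floor of 10), 0.01 (no filter), -0.09 (average of 100), -0.24 (quantile), -0.25 (median centring), -0.07 (as deposited) and -0.07 (mean of probe sets). Calcium medians at 3 days were 0.32, 0.65, 0.26, 0.28 and -0.01 (offset of 50, floor of 10, no filter, filter of 100, average of 100), and at 7 days 0.05, 0.36, -0.03, 0.05, 0.05 and 0.07 (no filter, filter of 100, average of 100, quantile, median centring, as deposited). Sodium medians at 3 days were 0.11, 0.18 and 0.16 (no filter, filter of 100, average of 100), and at 7 days -0.40, -0.62, -0.08, -0.75, -0.61 and -0.42 (offset of 50, floor of 10, no filter, filter of 100, average of 100, as deposited). A filter sets which genes enter a median; the other causes were not tested.

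Leaving out 1 array gave 8 to 13 higher and 7 to 11 lower at 3 days, 5 to 7 and 12 to 16 at 7 days, 14 to 16 and 9 to 11 over time in MHM + GF, 6 to 6 and 9 to 14 in rcCHIL3, and 5 to 9 above and 8 to 12 below for the difference between days. Medians lay from -0.22 to -0.10 and from -0.29 to -0.25 for potassium at 3 and 7 days, 0.38 to 0.51 and 0.00 to 0.04 for calcium, and -0.14 to -0.05 and -0.55 to -0.37 for sodium.

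With the replicate number as a block, 14 were higher and 12 lower at 3 days and 7 and 16 at 7 days. Of the 26 genes given in full, the block ended the calls of Cacna2d1 over time in MHM + GF (adjusted p = 0.05 as rounded) and of the Kcna6 difference between days (0.052), and gave Scn3b a call at 3 days (0.023). Deviations of arrays with the same number correlated at -0.013 to 0.054 over 6 pairs of groups, so the numbers were not taken as pairs. Of 2952 recomputed changes of the 26 genes 2710 kept their direction and side of the threshold, and none was called in opposite directions. Signals under 50 limit what could be compared, and 2 arrays a group limit precision.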
